A study of Mus musculus with 15 samples.

Results

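Loss of Tet2 on top of mutant Nras was read by setting the double mutant Tet2-/- Nras(G12D) without leukemia against Nras(G12D) alone, in sorted mouse blood stem and progenitor cells. The genes described are those with a deposited log2 value of at least 0 in 3 or more of the 6 libraries of these groups, which are 13171 of the 44827 genes in the table. The values are on the log2 CPM scale, where CPM is a gene's share of the reads in its library scaled to a common total, so a log2 value of 0 is 1 CPM. At the edge of this rule 350 genes had exactly 3 libraries at or above 0 and 410 genes that were left out had exactly 2. The log2 value that decided membership was 0.000861 for Gm27529, just inside, and -0.00791 for Gm4950, just outside.

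RNA was sequenced from LSK cells, the fraction of mouse bone marrow that carries Sca1 and cKit and lacks lineage markers, in 5 groups of 3 libraries. The groups are WT, Tet2-/-, Nras(G12D), Tet2-/- Nras(G12D) without leukemia (the double mutant below) and Tet2-/- Nras(G12D) with leukemia (the leukemic double mutant). All are labelled C57BL/6, the alleles were conditional and specific to blood-forming tissue, and the design text gives 6 months as the age of the animals whose methylome was studied. The Nras(G12D) allele is common to both groups compared, which differ by label in Tet2 alone. No source used here names the driver of recombination or the deleted part of Tet2, or says that libraries of 1 group are from different animals. The p-values therefore describe only how far these libraries spread, and some of that spread may be technical.

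TET2 is a dioxygenase that oxidises 5-methylcytosine in DNA and so starts its removal, and it is often lost in human myeloid disease. NRAS is a small GTPase that passes signals from growth factor receptors to the ERK kinases, and the G12D change keeps it bound to GTP. Immediate early genes, among them Egr1, Fos and Jun, are transcribed within minutes of such signals without new protein synthesis, and many of their products are transcription factors.

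Total counts ran from 24242814 to 43562909 in Nras(G12D) and from 27152151 to 33037109 in the double mutant. Mitochondrial reads took from 1.36% to 3.17% of counts in Nras(G12D) and from 1.21% to 2.11% in the double mutant. The Y-linked gene Ddx3y was at 91.5 CPM in Nras(G12D) library 2 and 175 CPM in double mutant library 1, while the remaining 4 had at most 0.181 CPM, so by this gene each group holds 1 library from a male and 2 from females. Ddx3y was at 259, 179 and 0 CPM in Tet2-/- libraries 1 to 3 and at most 0.457 CPM in WT. Tet2-/- against WT, used below, therefore differs in sex too, which was not separated from Tet2 loss there. The interaction test below includes the same libraries. The sorted cells carried Kit from 434 to 1827 CPM, Cd34 from 969 to 2012 CPM and Ly6a, the gene of Sca1, from 59.3 to 129 CPM over the 6 libraries. The lineage genes Cd3e and Ms4a1 did not reach the level rule, but most listed lineage genes did. It was reached by 13 of 18 B cell, 12 of 20 T and NK cell, 20 of 24 erythroid and 16 of 18 mature neutrophil genes. Among markers of mature neutrophils, Mmp9 stood apart in Nras(G12D) library 2, where it was at 154 CPM against 2.84 and 2.32 CPM in the other Nras(G12D) libraries. By the read shares of the pseudogenes Rpl34-ps1 and Gm5900, the leukemic libraries, labelled Tet2-/-, lay with the groups that keep Tet2. In bulk RNA, fewer cells of a type and less RNA per cell cannot be told apart.

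Tet2 transcript totals did not separate the groups. Tet2 (chromosome 3 of GRCm38, 133463679 to 133545139, minus strand) was at 56.8, 45.2 and 75.1 CPM in Nras(G12D) libraries 1 to 3 and at 62.6, 56.3 and 47.9 CPM in the double mutant. The groups overlapped. The log2 change was -0.06 ± 0.31 (SE; limma, adjusted p = 0.970). A deletion of some exons need not lower the total over a gene, so this value does not check the genotype labels. Nras was at 153, 200 and 191 CPM in Nras(G12D) and at 159, 157 and 145 CPM in the double mutant (log2 -0.23 ± 0.19, limma, adjusted p = 0.781).

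Few genes changed between the double mutant and Nras(G12D). At a Benjamini-Hochberg adjusted p below 0.05 in limma 15 of the 13171 genes changed (0.114%), 10 of them higher in the double mutant (0.0759%) and 5 lower (0.038%). At an unadjusted p below 0.05 there were 960 genes (7.29%), 670 higher and 290 lower. The 10 that rose were the immediate early genes Egr1, Jun and Dusp1, the interferon-inducible GTPase gene Gbp2b, the membrane protein gene Tmem246 and 5 processed pseudogenes, which are Rpl34-ps1, Gm5900, Tdpx-ps1, Gm7809 and Gm7335. The 5 that fell were the ribosomal protein gene Rpl34, the long noncoding RNA gene Gm19708, AA467197, Gm43305 and 9230105E05Rik. Pseudogenes and unnamed gene models made up 9 of the 15. Gbp2b, Tdpx-ps1, Gm7809 and Gm7335 lay below 1 CPM in each Nras(G12D) library, and Gm19708, AA467197, Gm43305 and 9230105E05Rik in each double mutant library, so these 8 reached the level rule only through the group where they are high. The number of calls rested on single libraries. It was 134 (121 higher and 13 lower) without double mutant library 1 and 9 without double mutant library 2, double mutant library 3 or Nras(G12D) library 2. Scaling moved the split as well, to 15 higher and 21 lower after quantile normalization and to 10 higher and 9 lower after median centring.

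**Figure D1:**
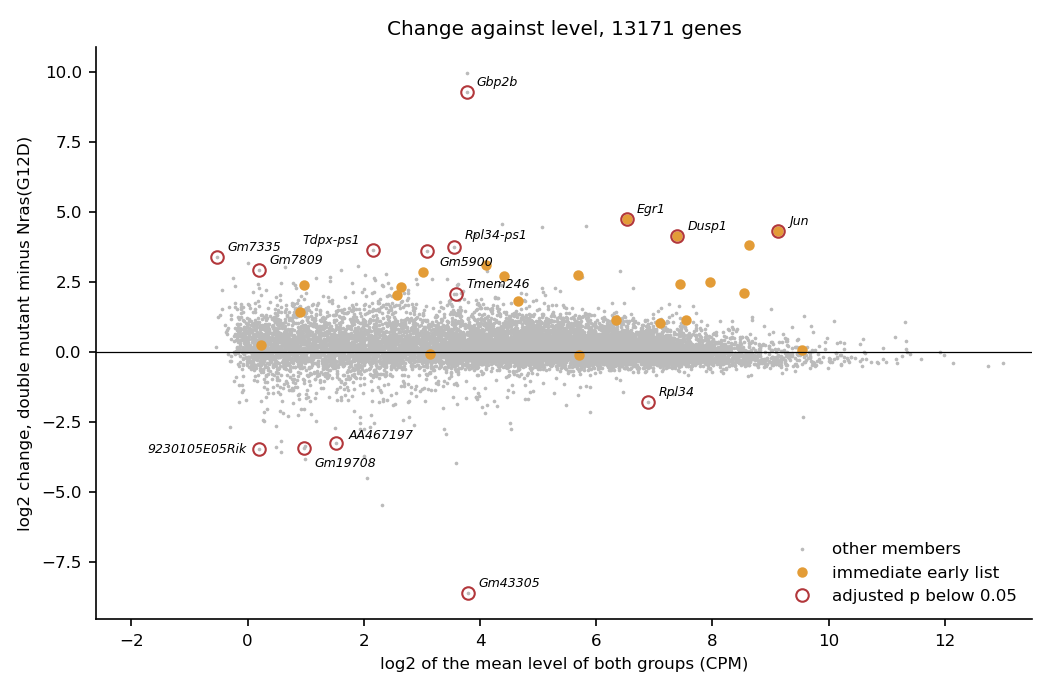
Log2 change between the double mutant and Nras(G12D) (vertical axis) against the level in CPM (horizontal axis, as the log2 of the mean of both group means) for the 13171 genes. Orange points are the immediate early list and red rings the 15 genes at an adjusted p below 0.05; Egr1, Jun and Dusp1 stand among the highest changes at levels above 6, while most other ringed genes lie below a level of 4.

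Egr1 had the clearest rise among immediate early genes. It encodes a zinc finger transcription factor downstream of ERK and lies on chromosome 18 (34859823 to 34864984, plus strand). Egr1 was at 6.42, 5.94 and 7.56 CPM in Nras(G12D) and at 181, 189 and 163 CPM in the double mutant. The groups did not overlap, and each double mutant library stood more than an order of magnitude above each Nras(G12D) library. Means were 6.64 ± 0.829 and 178 ± 13.1 CPM (SD, n = 3), a log2 rise of 4.74 ± 0.64 (SE; limma, adjusted p = 0.00457). The Egr1 call held under each of the 19 alternatives run, with an adjusted p of at most 0.0375. Egr1 was at 5.95, 12.2 and 8.13 CPM in WT and at 18.8, 13.4 and 4.18 CPM in Tet2-/-, which overlapped each other. The leukemic double mutant was split, with 23.8 and 21.6 CPM in libraries 1 and 2 and 150 CPM in library 3.

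Jun and Dusp1 rose less evenly. Jun, a subunit of the AP-1 transcription factor (chromosome 4, 95049034 to 95052222, minus strand), was at 47.1, 53.7 and 38.4 CPM in Nras(G12D) and at 379, 1230 and 1627 CPM in the double mutant. Its log2 change was 4.31 ± 0.76 (limma, adjusted p = 0.0479). Dusp1, a phosphatase that switches off MAP kinases (chromosome 17, 26505590 to 26562128, minus strand), was at 13.9, 16 and 11.4 CPM in Nras(G12D) and at 69.5, 408 and 487 CPM in the double mutant. Its log2 change was 4.14 ± 0.73 (limma, adjusted p = 0.0469). For both genes the groups did not overlap and double mutant library 1 was the lowest of its group. Both calls lay close to the threshold. Without Nras(G12D) library 1, 2 or 3 or double mutant library 2 or 3 they were lost, with log2 changes of 4.33, 4.42, 4.18, 4.09 and 3.89 for Jun and of 4.15, 4.25, 4.01, 3.75 and 3.63 for Dusp1. In a fit of the 6 libraries alone the limma adjusted p was 0.0752 for Jun and 0.236 for Dusp1. Both calls were also lost with 0.1 counts added in place of 0.5 (adjusted p = 0.0508), with the level rule taken over all 15 libraries (0.0582) and with a level rule at a log2 of 2 (0.0563), and that of Jun with a Y-linked covariate (0.0521). Jun was called in 9 and Dusp1 in 10 of the 19 alternatives.

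The start regions of Dusp1 and Jun show how sequence differs between genes that rose together. The 250 bases before the RefSeq start (GRCm38.p6) are printed 5′ to 3′ on the gene's strand, chr17:26508473-26508722 (minus) for Dusp1 and chr4:95052223-95052472 (minus) for Jun, and capitals mark the cAMP response element TGACGTCA and its core TGACGT, both searched on both strands.
Dusp1: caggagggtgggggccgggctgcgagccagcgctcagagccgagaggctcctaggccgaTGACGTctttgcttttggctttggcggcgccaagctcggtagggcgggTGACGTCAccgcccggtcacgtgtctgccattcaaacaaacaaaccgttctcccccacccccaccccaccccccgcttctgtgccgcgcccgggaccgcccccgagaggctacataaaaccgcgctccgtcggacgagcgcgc
Jun: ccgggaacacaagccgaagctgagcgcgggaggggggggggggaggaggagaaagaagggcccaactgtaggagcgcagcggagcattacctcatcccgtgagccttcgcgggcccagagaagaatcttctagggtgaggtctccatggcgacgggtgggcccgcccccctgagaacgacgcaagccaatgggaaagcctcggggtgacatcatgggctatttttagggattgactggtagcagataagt
In Dusp1 the full element began 143 bases before the start, with core matches beginning 191, 143 and 141 bases before it, those at 143 and 141 being part of the full element. The Jun window held no exact match. It does hold TGACATCA, which differs from the full element in 1 base, and such near matches were not searched for in any promoter. Of 21 immediate early genes with a promoter in RefSeq, 2 held the full element (9.52%, Btg2 and Dusp1), against 1.62% of 27025 promoters, and 5 held the core (23.8%) against 6.56%. The AP-1 element TGACTCA was in 0 of the 21 and in 4.43% of all promoters, and the CArG box in 1 of the 21 (Zfp36) and in 1.4% of all. A match is a description of these letters and not a measured site.

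Other immediate early genes lay higher in the double mutant without passing the threshold. Of 26 listed genes 23 reached the level rule (Egr2, Egr3 and Nr4a3 did not), 3 rose (Egr1, Jun and Dusp1) and 0 fell. The list had 21 of 23 log2 changes above 0 and a median of 2.32, against 58.1% above 0 and a median of 0.09 over all members. An unadjusted p below 0.05 with a higher level was reached by 19 of the 23, against 5.09% of all members, and in 16 the 3 double mutant libraries lay above the 3 of Nras(G12D), against 6.65%. The summed level of the list ran from 1440 to 1585 CPM in Nras(G12D) and from 4146 to 6145 CPM in the double mutant. The number of list members called ranged from 1 to 11 over the alternatives, and Egr1 was among them each time. The median was 1.94 to 2.36 when 1 library was left out.

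Fos, the AP-1 partner of Jun, was at 47.7, 16.3 and 155 CPM in Nras(G12D) and at 466, 745 and 955 CPM in the double mutant (log2 3.81 ± 0.87, limma, adjusted p = 0.199). The groups did not overlap, and Nras(G12D) was spread over nearly an order of magnitude. Ier2 was at 79, 139 and 34.9 CPM against 389, 396 and 455 CPM (log2 2.50 ± 0.61), and Junb, a further AP-1 subunit, at 64.4, 72.5 and 33.6 CPM against 282, 271 and 319 CPM (log2 2.43 ± 0.60), each with a limma adjusted p of 0.266. Zfp36, which encodes a protein that promotes decay of AU-rich mRNAs, was at 98.4, 94.2 and 270 CPM against 710, 529 and 537 CPM (log2 2.11 ± 0.45, limma, adjusted p = 0.169). In all 4 genes the lowest double mutant library stood above the highest Nras(G12D) library. Ier5 was at 20.7, 10 and 5.51 CPM against 22.5, 103 and 149 CPM (log2 2.75 ± 0.68, limma, adjusted p = 0.286), where double mutant library 1 was close to the Nras(G12D) range. Ppp1r15a, a phosphatase subunit of the stress response outside the list, was at 26.4, 25.5 and 54 CPM against 196, 136 and 155 CPM (log2 2.28 ± 0.46, limma, adjusted p = 0.119). Not all members of these families moved: log2 changes were -0.12 for Csrnp1, 0.08 for Myc and -0.08 for Fosl2, with overlapping groups.

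**Figure D2:**
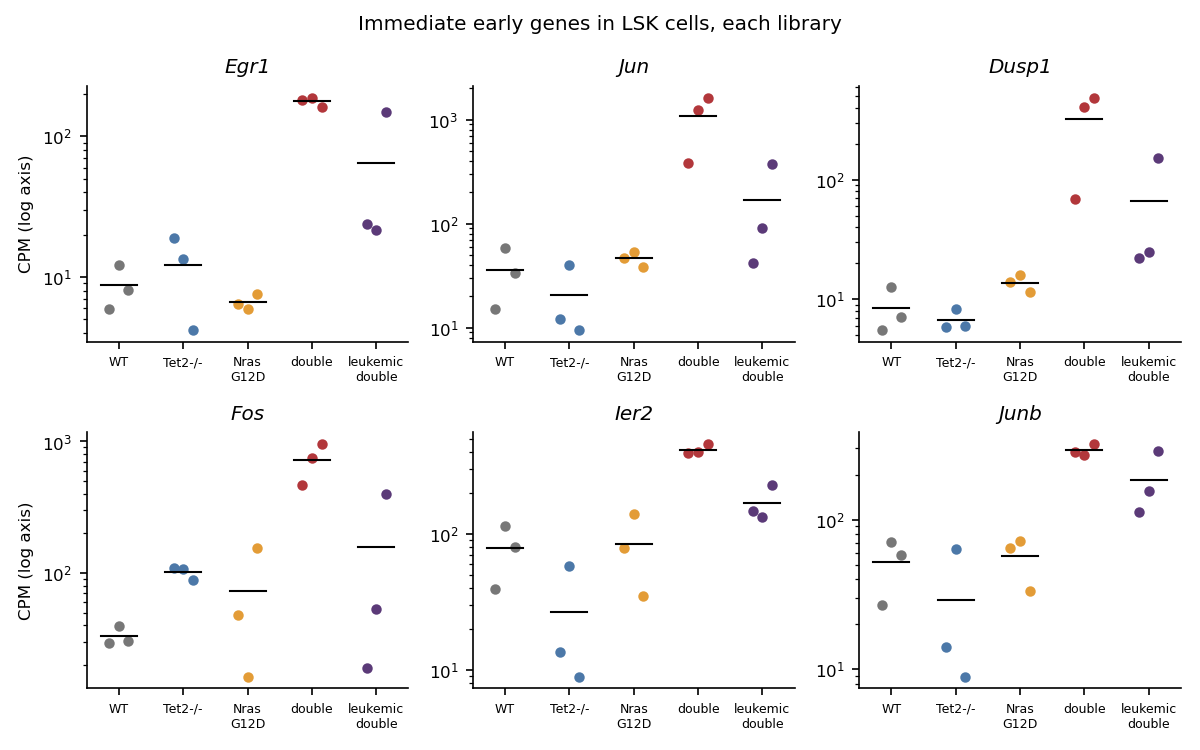
Level in CPM (log axis) of 6 immediate early genes in each of the 15 libraries, by group; each point is a library and each bar the group mean. The double mutant points lie above the Nras(G12D) points in all 6 panels, while the leukemic double mutant is spread, with library 3 highest for Egr1 (150 CPM) and Jun (375 CPM).

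Without mutant Nras, the immediate early list had a median change near 0 on Tet2 loss. The comparison of Tet2-/- with WT uses none of the 6 libraries above, and its groups differ in sex as well. There the list had a median log2 change of -0.05, with 11 of 23 above 0. This median covers changes in both directions, none of those that follow past the threshold. Log2 changes were 1.62 for Fos, 1.23 for Zfp36 and 1.42 for Btg2 (limma, adjusted p = 0.258, 0.138 and 0.0837). They were -1.90 for Ier2 and -1.26 for Junb (limma, adjusted p = 0.116 and 0.210). The log2 change was 0.28 ± 0.64 for Egr1, -0.90 ± 0.76 for Jun and -0.27 ± 0.73 for Dusp1 (limma, adjusted p = 0.800, 0.465 and 0.837). The test of the difference between both Tet2 effects (interaction) gave 4.46 for Egr1, 5.21 for Jun and 4.40 for Dusp1, with unadjusted p of 0.0002, 0.00025 and 0.00071 and an adjusted p of 0.139 for each. These genes were picked by their call in the double mutant against Nras(G12D), and the interaction reuses those 6 libraries. Its sizes and unadjusted p for them are therefore favoured by that choice. Limma called 0 of the 13171 genes in the interaction (0%), with 2805 at an unadjusted p below 0.05 (21.3%), so the difference did not pass over all genes. Heat shock genes were read as a further list. Among them Hspa1a was at 3.43, 5.79 and 4.09 CPM in Nras(G12D) and at 10.8, 27.4 and 79.2 CPM in the double mutant (log2 2.72 ± 1.06, limma, adjusted p = 0.602). Of 15 heat shock genes 0 were called by limma, 3 lay higher and 1 lower at an unadjusted p below 0.05, and the median was 0.05 (from -0.13 to 0.21 when 1 library was left out). At that p 5.09% of all members lay higher and 2.2% lower. In 4 heat shock genes the double mutant libraries all lay above those of Nras(G12D), against 6.65% of all members. In 1 they all lay below, against 6.94%.

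Among ERK output and RAS pathway genes Egr1 alone passed. Of 20 ERK output and feedback genes 1 was called, 5 lay higher and 1 lower at an unadjusted p below 0.05, 12 were above 0 and the median was 0.24. That median was 0.06 without Nras(G12D) library 3 and 0.05 without double mutant library 2. Over all members 0.114% were called and 58.1% were above 0, with 5.09% higher and 2.2% lower at an unadjusted p below 0.05. The same shares apply to the lists below. The feedback inhibitor gene Spry2 was at 6.09, 2.61 and 4.89 CPM against 6.29, 5.64 and 6.99 CPM (log2 0.56 ± 0.50, limma, adjusted p = 0.798). Dusp6, the phosphatase of ERK, was at 154, 304 and 184 CPM against 271, 226 and 226 CPM (log2 0.23 ± 0.62, limma, adjusted p = 0.946). Both pairs of groups overlapped. Among 33 RAS pathway components 0 were called by limma (22 above 0, median 0.33, 3 higher and 1 lower at an unadjusted p below 0.05), and the median was 0.12 without Nras(G12D) library 3. Among 19 genes of the DNA methylation machinery, which include the Tet and Dnmt enzymes, 0 were called by limma (11 above 0, median 0.10, 1 higher at an unadjusted p below 0.05), with a median of up to 0.19 when Nras(G12D) library 3 was left out.

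The called genes Gbp2b, Rpl34 and Gm19708 lie within 10 Mb of Tet2 on chromosome 3, and 2 more are pseudogene copies of genes there. The copies are shown because they differ from their parents by a pair of bases. Printed here are stretches, from base 91 to the stop codon, of the coding sequences of Rpl34, a protein of the large ribosomal subunit (chromosome 3, 130726831 to 130730398, 2.78 Mb from Tet2), and of Lamtor3, a scaffold of the lysosomal Ragulator complex (chromosome 3, 137918506 to 137928900, 4.42 Mb from Tet2). Each stands above its processed pseudogene, Rpl34-ps1 (chromosome 6, 71124610 to 71124963) and Gm5900 (chromosome 7, 104949915 to 104950289). All are from GENCODE M21 on GRCm38, 5′ to 3′ on the gene's strand, hold every base that differs and mark those bases in capitals.
Rpl34: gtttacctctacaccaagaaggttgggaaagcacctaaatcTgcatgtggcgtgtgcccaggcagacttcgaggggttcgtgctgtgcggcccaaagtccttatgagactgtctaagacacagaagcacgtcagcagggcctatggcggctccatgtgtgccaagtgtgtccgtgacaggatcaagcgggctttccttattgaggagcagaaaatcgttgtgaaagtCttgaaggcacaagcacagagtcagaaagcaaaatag
Rpl34-ps1: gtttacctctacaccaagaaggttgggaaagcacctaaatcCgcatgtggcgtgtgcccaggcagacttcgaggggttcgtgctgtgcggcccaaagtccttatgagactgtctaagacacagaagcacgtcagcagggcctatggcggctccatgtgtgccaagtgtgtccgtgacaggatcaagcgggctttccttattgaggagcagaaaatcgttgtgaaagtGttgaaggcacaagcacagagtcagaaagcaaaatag
Lamtor3: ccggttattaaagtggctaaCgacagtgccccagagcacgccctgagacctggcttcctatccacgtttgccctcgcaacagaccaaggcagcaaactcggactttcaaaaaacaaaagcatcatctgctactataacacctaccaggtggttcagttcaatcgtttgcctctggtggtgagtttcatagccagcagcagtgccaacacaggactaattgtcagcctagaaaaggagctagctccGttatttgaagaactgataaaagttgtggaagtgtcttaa
Gm5900: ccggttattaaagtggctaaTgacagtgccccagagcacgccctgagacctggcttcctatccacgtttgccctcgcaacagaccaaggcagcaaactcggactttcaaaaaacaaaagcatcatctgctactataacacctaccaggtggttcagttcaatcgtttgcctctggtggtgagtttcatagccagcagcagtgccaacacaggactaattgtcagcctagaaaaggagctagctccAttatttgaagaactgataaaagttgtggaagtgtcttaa
Counted from 1 at the first base of the start codon, the substitutions from parent to copy are T132C and C318G over 354 bases for Rpl34-ps1 (99.44% identity) and C111T and G336A over 375 bases for Gm5900 (99.47% identity). Reads that span none of these positions match parent and copy equally, and no source used here says how such reads were counted, so the split of reads within each pair is uncertain.

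Rpl34 fell and its copy rose. Rpl34 was at 245, 143 and 168 CPM in Nras(G12D) and at 50.4, 47.1 and 57.8 CPM in the double mutant, a log2 fall of -1.81 ± 0.24 (limma, adjusted p = 0.00425). Rpl34-ps1 was at 3.17, 1.11 and 1.18 CPM against 21.3, 19 and 24.9 CPM (log2 3.74 ± 0.39, limma, adjusted p = 0.000873). Neither pair of groups overlapped. The copy took 0.916 ± 0.317% of the reads of both in Nras(G12D), and the double mutant had 29.5 ± 0.673% (SD, n = 3), and the sum of both was 187 ± 54.2 against 73.5 ± 8.42 CPM. The summed level of the pair was thus lower in the double mutant as well. In Tet2-/- the copy's share was 33.2 ± 1.11% and in WT 0.880 ± 0.155%, with a Rpl34 log2 change of -1.48 (limma, adjusted p = 0.0192). In the leukemic double mutant, which carries the same genotype label as the double mutant, the share was 0.889 ± 0.0826% and Rpl34 was at 142, 192 and 196 CPM, within the range of Nras(G12D) in libraries 2 and 3 and just below it in library 1.

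Gm5900 rose while its parent did not pass. Gm5900 was at 1.22, 1.16 and 1.49 CPM in Nras(G12D) and at 15.5, 15.6 and 16 CPM in the double mutant (log2 3.60 ± 0.29, limma, adjusted p = 5.78e-05). It had the smallest p of the 13171 genes, and its groups did not overlap. Lamtor3 was at 56, 52.7 and 65 CPM against 42.9, 39.8 and 39.2 CPM (log2 -0.51 ± 0.21, limma, adjusted p = 0.636). The sum of both was 59.2 ± 6.55 CPM in Nras(G12D) and 56.3 ± 1.77 CPM in the double mutant, so it differed by less than the spread of Nras(G12D). The copy's share was 2.17 ± 0.0551% in Nras(G12D), against 27.9 ± 1.27% in the double mutant, 27 ± 0.633% in Tet2-/-, 2.09 ± 0.164% in WT and 1.79 ± 0.587% in the leukemic double mutant. The leukemic libraries enter the comparison only through the shared estimate of spread. Without them 20 genes were called, the 15 among them.

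Gbp2b changed from near absence. This guanylate-binding protein gene, an interferon-inducible GTPase of host defence (chromosome 3, 142594847 to 142619179, plus strand, 9.1 Mb from Tet2), had 1, 0 and 3 counts in Nras(G12D) and 811, 612 and 1001 counts in the double mutant. In CPM it was at 0.0369, 0 and 0.0929 against 28, 18.5 and 35.1, where 0 counts in library 2 allow up to 0.0775 CPM (3 counts). The ratio of summed counts per library size was 656, with a counting interval from 256 to 2411 (95%, counting error only). The fitted log2 change was 9.27 ± 1.03 (limma, adjusted p = 0.00121) and depends on the 0.5 counts added to each value. Gbp2b was at 88, 28.6 and 76.4 CPM in Tet2-/- and at most 0.183 CPM in WT (log2 8.83, limma, adjusted p = 0.00164), and at 0.24, 5.8 and 0.312 CPM in the leukemic double mutant. In the interferon-stimulated list limma called 0 of 36 genes (1 lower at an unadjusted p below 0.05), 15 lay above 0 and the median was -0.08 (from -0.23 to 0.07 when 1 library was left out). In Tet2-/- against WT 29 of the 36 lay above 0 and the median was 0.55. Ifi44l, chosen after its values were seen and 18.3 Mb from Tet2, had 0, 2 and 0 counts against 645, 717 and 1087 (ratio 1326, counting interval 367 to 10960), and its limma adjusted p was 0.199. In Tet2-/- Ifi44l was at 73.6, 0 and 62.6 CPM, so 1 library of that group had none.

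**Figure D3:**
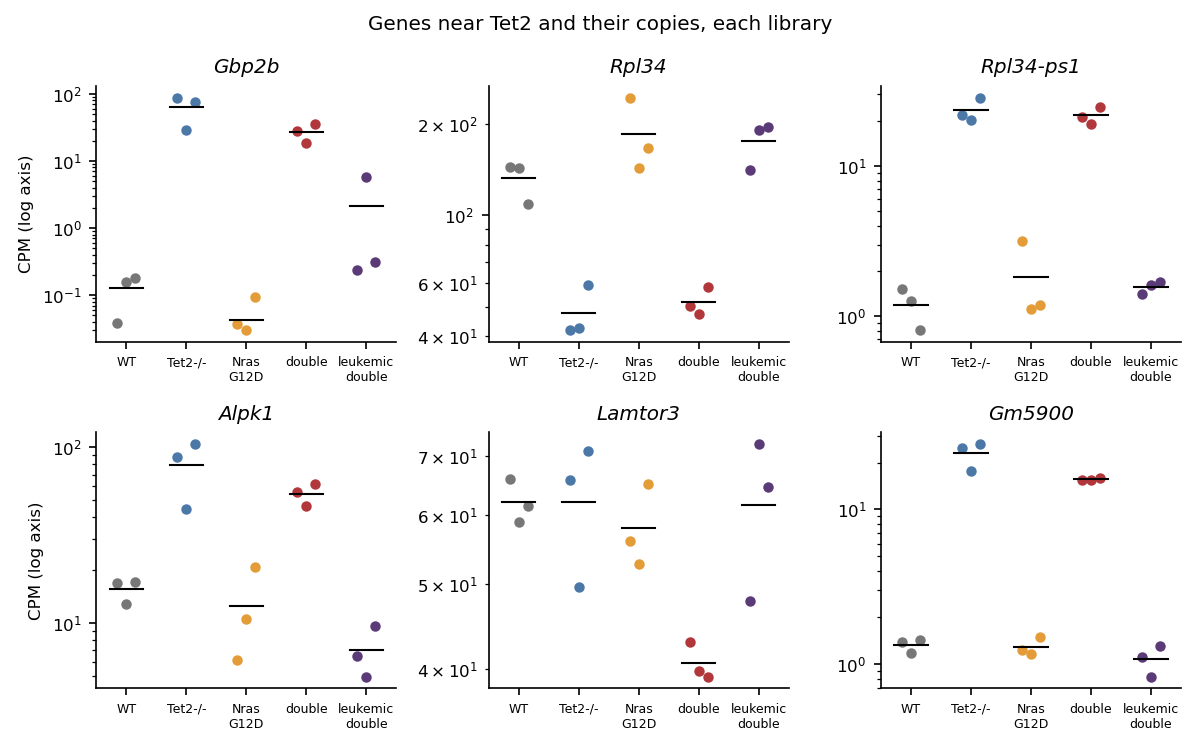
Level in CPM (log axis) of Gbp2b, Rpl34, Alpk1 and Lamtor3, which lie near Tet2, and of the copies Rpl34-ps1 and Gm5900, in each of the 15 libraries by group; bars are group means and a library at 0 is drawn at 0.03 CPM. Tet2-/- and the double mutant lie together and the leukemic double mutant lies near WT and Nras(G12D) in the panels of Rpl34, Rpl34-ps1 and Gm5900.

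Gm19708, a long noncoding RNA gene 4.5 Mb from Tet2 (chromosome 3, 138000939 to 138016044), fell. It was at 2.25, 4.52 and 4.03 CPM in Nras(G12D) and at 0.415, 0.271 and 0.246 CPM in the double mutant (log2 -3.44 ± 0.45, limma, adjusted p = 0.00421). The groups did not overlap, but the level rule fixed this in advance, since each double mutant library lay below 1 CPM. Tet2-/- libraries of Gm19708, at 1.66, 0.906 and 1.12 CPM, lay below the 3 WT libraries as well (log2 -1.55, limma, adjusted p = 0.110). Other genes of the region did not pass. Alpk1, an innate immune kinase gene 5.78 Mb from Tet2, was at 6.13, 10.6 and 20.9 CPM against 55.5, 46.1 and 61.6 CPM (log2 2.29 ± 0.42, limma, adjusted p = 0.0642). In Tet2-/- against WT its log2 change was 2.26 (limma, adjusted p = 0.0467), and with the replicate number as a block it passed in the double mutant (adjusted p = 0.0132). Gstcd, 0.468 Mb from Tet2, was at 15.1, 19.4 and 6.19 CPM against 44.3, 63.6 and 55 CPM (log2 2.14 ± 0.45, limma, adjusted p = 0.146), and it too passed with the block (adjusted p = 0.0277). Bank1, a B cell scaffold gene 2.69 Mb away, was at 2.44, 8.47 and 9.07 CPM against 0.934, 0.965 and 0.983 CPM (log2 -2.56 ± 0.49, limma, adjusted p = 0.0844).

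Across the chromosome, called genes were denser near Tet2 than over all members, which rests on Rpl34, Gm19708 and Gbp2b. Of these, Gm19708 and Gbp2b reached the level rule only through the group where they are high. Within 5 Mb on either side 2 of 45 genes were called (4.44%), within 10 Mb 3 of 70 (4.29%) and within 20 Mb 3 of 149 (2.01%), against 0.114% of all members. At an unadjusted p below 0.05 the shares were 17.8%, 15.7% and 10.1%, against 7.29%. Tet2-/- against WT, from other libraries, had 1, 3 and 3 called genes in the same windows. In that comparison 24.2% of members had an unadjusted p below 0.05. Over all members the log2 changes of both comparisons were weakly and inversely related (Spearman -0.276, Pearson -0.142). Of the 15 called genes 9 had the same sign in both, and no such share over all members is given here. Between these comparisons 4 of the 15 genes were called in both (Gbp2b, Rpl34, Rpl34-ps1 and Gm5900), which is 26.7% of the 15 and 16% of the 25 called in Tet2-/- against WT (0.19% of members; 13 higher, 0.0987%, and 12 lower, 0.0911%). All 4 lie near Tet2 or are copies of a gene near it. Nras itself lies on this chromosome, 30.4 Mb away, and its mutant allele is in both groups. Whether sequence linked to the targeted Tet2 allele bears on these values was not tested.

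**Figure D4:**
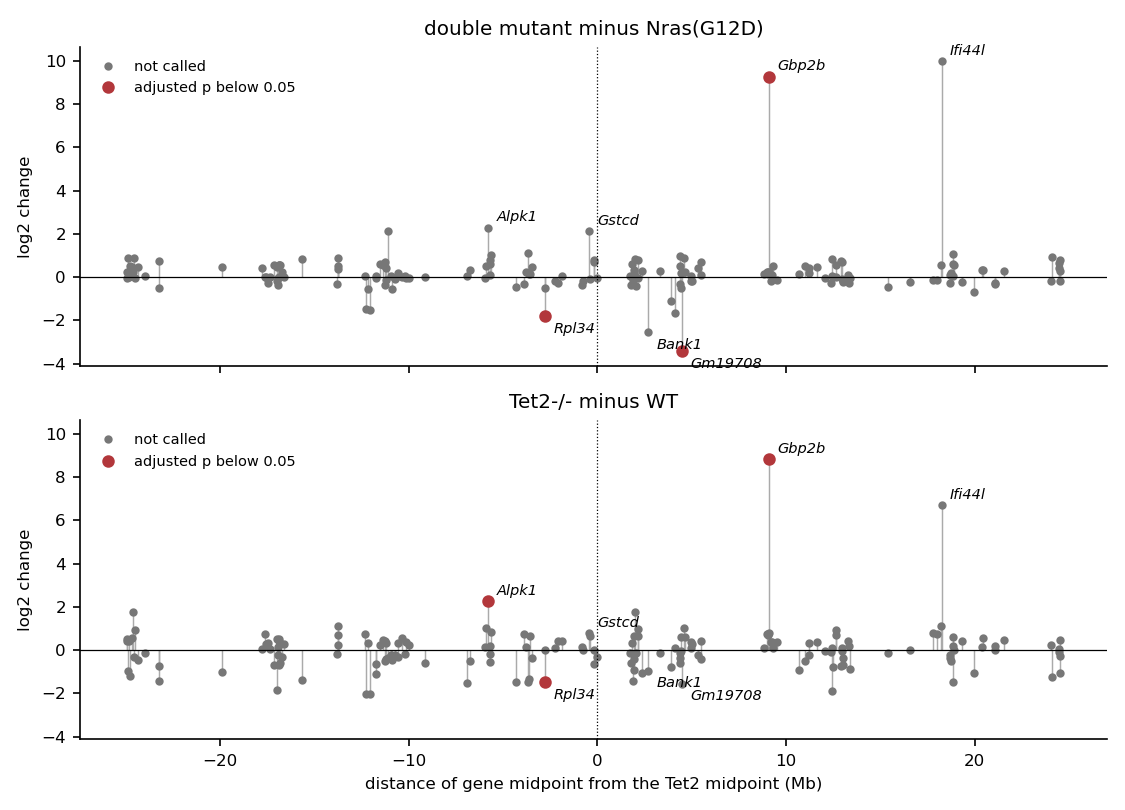
Log2 change (vertical axis) against the distance of each gene's midpoint from the midpoint of Tet2 in Mb (horizontal axis), for the double mutant minus Nras(G12D) above and Tet2-/- minus WT below. Red points have an adjusted p below 0.05; Gbp2b and Rpl34 are red in both panels, Gm19708 in the upper and Alpk1 in the lower one.

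The other called pseudogenes did not follow Tet2 loss in both settings. Tdpx-ps1, a copy of the peroxiredoxin gene Prdx2 (96.31% identity), was at 0.701, 0.568 and 0.588 CPM in Nras(G12D) and at 12.2, 5.22 and 7.37 CPM in the double mutant (log2 3.62 ± 0.46, limma, adjusted p = 0.00383). In Tet2-/- against WT its log2 change was -0.12, and the leukemic double mutant had 0.652, 2.5 and 1.53 CPM. Gm7809, a copy of the tropomyosin gene Tpm4 (96.9% identity), was at 0.185, 0.284 and 0.31 CPM against 2.28, 1.96 and 1.86 CPM (log2 2.92 ± 0.46, limma, adjusted p = 0.0207). Gm7335, a copy of Scoc (90.22% identity), was at 0.185, 0.103 and 0.0619 CPM against 1.14, 1.48 and 1.19 CPM (log2 3.39 ± 0.56, limma, adjusted p = 0.0268). The groups did not overlap for any of these 3, but the level rule fixed this in advance, since each Nras(G12D) library lay below 1 CPM. All 3 parents lie on chromosome 8, Scoc at 83430084 to 83458391, Prdx2 at 84969587 to 84974834 and Tpm4 at 72134975 to 72153142. The copies took 3.53 ± 1.62% of the reads of Prdx2 and Tdpx-ps1, 2.17 ± 0.0964% of those of Tpm4 and Gm7809 and 4.42 ± 0.904% of those of Scoc and Gm7335 in the double mutant, against 0.175 ± 0.0124%, 0.318 ± 0.114% and 0.349 ± 0.216% in Nras(G12D). The call of Tdpx-ps1 held without each single library. That of Gm7809 was lost without Nras(G12D) library 1, 2 or 3 or double mutant library 2 or 3 (log2 from 2.72 to 3.06), and that of Gm7335 without Nras(G12D) 2 or 3 or double mutant 2 or 3 (log2 from 3.06 to 3.43). Both were lost with no level rule (limma adjusted p = 0.110 for Gm7809 and 0.114 for Gm7335) and in the fit of the 6 libraries (0.0909 and 0.139), and that of Gm7335 with the level rule over all 15 libraries (0.0631).

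Tmem246, a gene of a Golgi membrane protein on chromosome 4 (49584506 to 49597876, minus strand), rose from 4.61, 4.34 and 4.77 CPM to 15.5, 22 and 20.5 CPM (log2 2.06 ± 0.26, limma, adjusted p = 0.00383). The groups did not overlap. WT libraries had 8.69, 11.6 and 12.6 CPM and Tet2-/- libraries 11.9, 9.42 and 7.4 CPM, so both lay between the groups compared. AA467197, a protein-coding gene on chromosome 2 (122636986 to 122641191), fell from 5.72, 3.13 and 6.91 CPM to 0.761, 0.513 and 0.316 CPM (log2 -3.28 ± 0.54, limma, adjusted p = 0.0268). Gm43305, a noncoding transcript on chromosome 14 (54292443 to 54297456), fell from 39, 25.3 and 18.6 CPM to 0, 0.181 and 0.0702 CPM, where 0 counts allow up to 0.104 CPM (log2 -8.63 ± 1.37, limma, adjusted p = 0.0225). Its level also varied within groups, with 0.34, 59.2 and 2.97 CPM in Tet2-/-. The antisense model 9230105E05Rik on chromosome 10 (120389523 to 120392793) fell from 2.62, 2.22 and 1.55 CPM to 0.173, 0.211 and 0.14 CPM (log2 -3.47 ± 0.57, limma, adjusted p = 0.0268). These 4 genes had groups that did not overlap. For AA467197, Gm43305 and 9230105E05Rik the level rule fixed this in advance, since each double mutant library lay below 1 CPM. Tmem246 kept its call without each single library. AA467197 lost it without Nras(G12D) 1 or 3 or double mutant 2 or 3 (log2 -3.18, -3.04, -3.29 and -2.96), Gm43305 without Nras(G12D) 1, 2 or 3 or double mutant 3 (-8.35, -8.66, -8.88 and -8.83) and 9230105E05Rik without Nras(G12D) 1, 2 or 3 or double mutant 2 or 3 (-3.30, -3.42, -3.68, -3.60 and -3.34). AA467197 was also lost in the fit of the 6 libraries (limma adjusted p = 0.139). 9230105E05Rik was lost there (0.0752), with no level rule (0.106), with the level rule over all 15 libraries (0.0582) and with 0.1 counts added (0.0508).

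Lymphoid priming genes lay lower in the double mutant, with none past the threshold. These genes mark LSK cells that lean towards B and T lineages. Of 16 genes 0 were called by limma, 2 lay above 0 and the median log2 change was -0.56. An unadjusted p below 0.05 with a lower level was reached by 5 (2.2% of all members), and 4 had their double mutant libraries all below those of Nras(G12D) (6.94% of all members). Dntt, the terminal transferase that adds bases at antigen receptor joints, was at 821, 1473 and 1387 CPM in Nras(G12D) and at 419, 324 and 98.4 CPM in the double mutant (log2 -2.32 ± 0.56, limma, adjusted p = 0.266). Rag2, which cuts DNA in receptor rearrangement, was at 18.3, 25.2 and 38.2 CPM against 9.93, 7.3 and 2.6 CPM (log2 -2.18 ± 0.55, limma, adjusted p = 0.293). Rbpj, the DNA-binding partner of Notch, was at 49.8, 79.6 and 51.3 CPM against 27.2, 22.9 and 29.8 CPM (log2 -1.15 ± 0.26, limma, adjusted p = 0.199). In these 3 genes the groups did not overlap, and library 3 was the lowest double mutant library for Dntt and Rag2. Without it the list median was -0.29, and in Tet2-/- against WT it was 0.25. Lck, a T cell kinase gene, was at 42.4, 91.8 and 89.9 CPM against 42.1, 29.6 and 19.9 CPM (log2 -1.27 ± 0.42, limma, adjusted p = 0.550), while Cd3e, Cd3d and Cd3g did not reach the level rule.

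Myeloid and antigen presentation genes varied between the Nras(G12D) libraries. Of 18 dendritic cell and antigen presentation genes 0 were called by limma (2 higher at an unadjusted p below 0.05), 15 lay above 0 and the median was 1.08. At that p 5.09% of all members lay higher, and 58.1% of all members lay above 0. Cd209a, a lectin gene of dendritic cells, was at 0.664, 1.27 and 0.372 CPM against 5.98, 3.23 and 4.46 CPM (log2 2.67 ± 0.73, limma, adjusted p = 0.412), with no overlap. H2-Aa, an MHC class II chain, was at 540, 101 and 240 CPM against 665, 392 and 532 CPM (log2 1.14 ± 0.53, limma, adjusted p = 0.676), with overlap. Nras(G12D) library 2 was the lowest for H2-Aa, and without it the list median was 0.34. In Tet2-/- against WT this list had a median of 1.77. Mature neutrophil genes had 15 of 16 below 0 and a median of -0.73, with 0 called by limma and 2 lower at an unadjusted p below 0.05 (2.2% of all members). Their summed level ran from 254 to 4847 CPM in Nras(G12D) and from 233 to 544 CPM in the double mutant. Without Nras(G12D) library 2 the median was 0.90, so the direction rested on that library. It was -1.35 without Nras(G12D) library 1, -1.63 without library 3 and -0.34 without double mutant library 2.

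Erythroid genes lay lower, with none called of the 20 that reached the level rule (limma; 1 lower at an unadjusted p below 0.05). Of these 17 lay below 0, the median was -0.92 and 7 had their double mutant libraries all below those of Nras(G12D), against 6.94% of all members. Klf1, the master regulator of red cell genes, was at 15.6, 56.2 and 4 CPM against 14.1, 15.8 and 6.85 CPM (log2 -0.40 ± 1.08, limma, adjusted p = 0.946). The groups overlapped for Klf1. Without double mutant library 3 the list median was -0.59. In Tet2-/- against WT the erythroid median was -1.69, with 2 of the 20 above 0. Stem cell genes had 17 of 24 above 0 and a median of 0.24, with 0 called by limma, 1 higher at an unadjusted p below 0.05 (5.09% of all members) and 8 with the double mutant libraries all above (6.65% of all members). In Tet2-/- against WT 8 of the 24 lay above 0 and the median was -0.35. Gata2, a stem cell transcription factor gene, was at 182, 219 and 90.7 CPM against 244, 291 and 294 CPM (log2 0.84 ± 0.39, limma, adjusted p = 0.676).

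**Figure D5:**
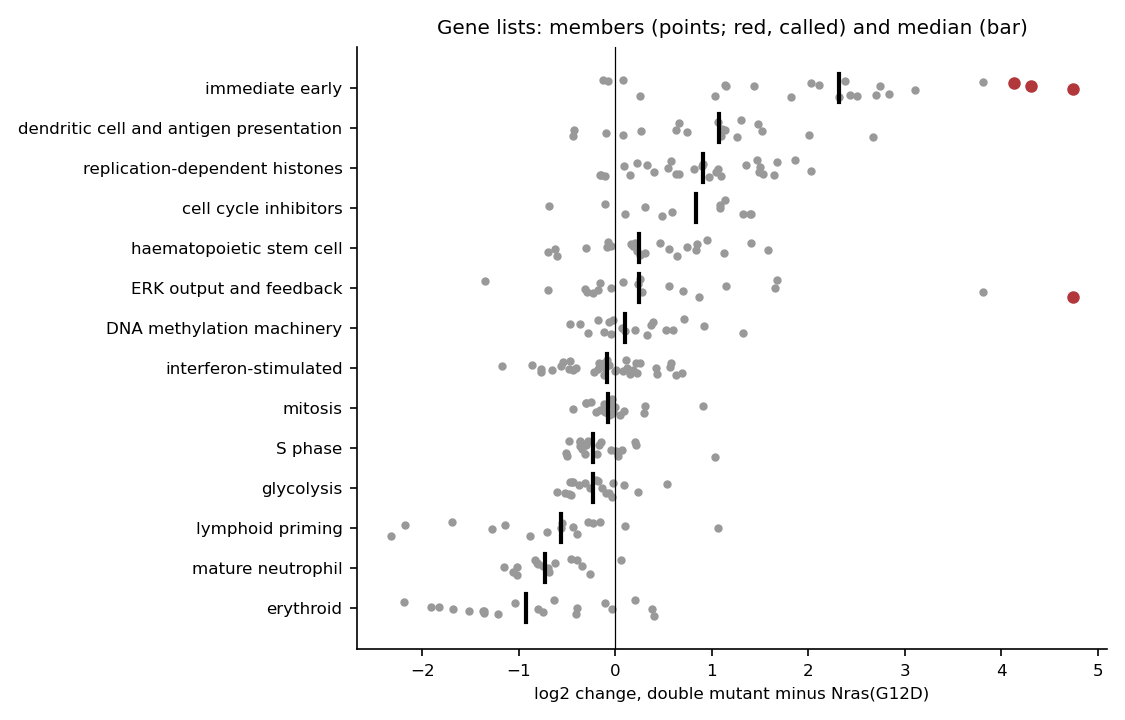
Log2 change between the double mutant and Nras(G12D) (horizontal axis) of the genes in 14 lists; each point is a gene, red points have an adjusted p below 0.05 and black bars are list medians. The immediate early median of 2.32 is the highest of the lists drawn and the erythroid median of -0.92 the lowest; 1 red point of the ERK list is Egr1 again.

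Cell cycle and metabolism lists gave no call. Glycolysis genes had 17 of 20 below 0 and a median of -0.23, with 0 called by limma, 6 lower at an unadjusted p below 0.05 (2.2% of all members) and 7 with the double mutant libraries all below (6.94% of all members). The median was -0.46 without Nras(G12D) library 1 and -0.14 without library 2. Gapdh was at 705, 881 and 639 CPM against 529, 507 and 420 CPM (log2 -0.61 ± 0.18, limma, adjusted p = 0.5), and Tpi1, which encodes triosephosphate isomerase, at 534, 679 and 634 CPM against 432, 444 and 450 CPM (log2 -0.47 ± 0.18, limma, adjusted p = 0.601). Neither pair of groups overlapped. Replication-dependent histone genes, whose mRNAs mostly lack poly(A) tails, had 25 of 28 above 0 and a median of 0.91, with 0 called by limma and 7 higher at an unadjusted p below 0.05 (5.09% of all members). Without Nras(G12D) library 3 the median was 0.52. In Tet2-/- against WT 0 of the 28 lay above 0 and the median was -1.25. Hist1h1c, a linker histone gene, was at 29.3, 46.3 and 14 CPM against 81.5, 66.7 and 84.9 CPM (log2 1.53 ± 0.50, limma, adjusted p = 0.545), with no overlap. Cell cycle inhibitors had 10 of 12 above 0 and a median of 0.83, with 0 called by limma and 4 higher at an unadjusted p below 0.05 (5.09% of all members). Among them Btg2, an antiproliferative gene that is also on the immediate early list, was at 85, 128 and 133 CPM against 355, 204 and 211 CPM (log2 1.13 ± 0.31, limma, adjusted p = 0.412). S phase and mitosis genes had medians of -0.24 and -0.08, with 0 called in each list by limma and 1 and 0 at an unadjusted p below 0.05. Without Nras(G12D) library 2 the S phase median was -0.05, and the mitosis median ran from -0.16 to 0.10 when 1 library was left out.

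Markers of other blood and stromal cells were few or gave no call by limma. For the counts that follow, 5.09% of all members lay higher and 2.2% lower at an unadjusted p below 0.05, and 58.1% lay above 0. Of 18 B cell genes 13 reached the level rule, with a median of -0.02 and 1 higher and 1 lower at an unadjusted p below 0.05. The higher one was Cd22, a B cell inhibitory receptor gene, at 1.62, 1.01 and 2.29 CPM against 9.65, 8.8 and 3.79 CPM (log2 2.13 ± 0.60, limma, adjusted p = 0.438). Of 20 T and NK cell genes 12 reached the rule (median -0.09, 4 lower at an unadjusted p below 0.05), and of 15 stromal and endothelial genes 5 did (median 0.23, 1 higher), with Col1a1, Cxcl12 and Cdh5 among those that did not. Granulocyte-monocyte progenitor, monocyte, megakaryocyte and mast cell lists had medians of -0.04, 0.00, 0.27 and 0.13, with 1, 3, 2 and 1 genes higher and 0 lower at an unadjusted p below 0.05. Among 20 NF-kB and cytokine genes the median was 0.33, with 3 higher at an unadjusted p below 0.05. Il6, a cytokine gene of inflammation, was at 0.738, 0.413 and 0.434 CPM against 2.63, 2.62 and 3.44 CPM (log2 2.46 ± 0.48, limma, adjusted p = 0.106), with no overlap. The level rule fixed this in advance, since each Nras(G12D) library of Il6 lay below 1 CPM. Self-renewal genes, which include the Hox genes, had 19 of 22 above 0 and a median of 0.31, p53 targets 13 of 20 and 0.20, and polycomb genes 16 of 24 and 0.17, with 1, 2 and 1 higher and 0 lower at an unadjusted p below 0.05. Leaving out 1 library moved most of these medians by more than 1.5 times. It took those of the B cell, T and NK cell, stromal, progenitor, monocyte and mast cell lists across 0, to between -0.34 and 0.33. The self-renewal median was 0.57 without double mutant library 1, the p53 median 0.49 without Nras(G12D) library 2 and the polycomb median 0.03 without the same library.

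Beyond the lists, the naming rule gave further genes that did not pass but had groups without overlap. Higher in the double mutant were Mycl, a MYC family gene, at 19.4, 2.69 and 4.15 CPM against 24.7, 36.3 and 35.7 CPM, and Clasrp, a splicing-related gene, at 20.2, 12.8 and 9.17 CPM against 27.7, 84.8 and 94.8 CPM. Their limma adjusted p was 0.560 and 0.199, with a log2 change of 2.19 for Clasrp. Lower were Ddx4, a germ cell RNA helicase gene, at 18.5, 53 and 49.5 CPM against 10.1, 5.52 and 2.7 CPM (log2 -2.77, limma, adjusted p = 0.108) and Psmb5, a catalytic proteasome subunit gene, at 91.3, 75.8 and 82.1 CPM against 29.8, 42.2 and 33.9 CPM (log2 -1.25, limma, adjusted p = 0.199). Means of Psmb5 were 83.1 ± 7.79 and 35.3 ± 6.27 CPM (SD, n = 3). Emp1, Chdh, Acp1, Slc25a5 and Prss57 had log2 changes of -1.92, -1.49, -1.12, -0.77 and -0.77, with limma adjusted p from 0.308 to 0.560. Thbs1, which encodes the matrix protein thrombospondin-1, was at 2.69, 7.05 and 29.9 CPM in Nras(G12D) and at 0.899, 2.02 and 1.26 CPM in the double mutant (log2 -2.64 ± 0.76, limma, adjusted p = 0.481). Its groups did not overlap, and both lay below WT, which had 304, 77.2 and 302 CPM.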

How the data were processed

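RNA from sorted LSK cells was sequenced from stranded mRNA libraries, per the labels' protocols. The authors deposited 1 table of log2 values per gene symbol and library. That these are log2 CPM with 0.5 counts added was read from the values: under that formula 100% of them came back as whole counts within 1e-06. The tools named per the submitters' processing notes are STAR (2.4.0f1) and bcl2fastq, limma (3.28.21) and edgeR (3.14.0); they list NCBIM37 beside mm10 and say nothing of which build served which step. What counted the reads, on which annotation and with which strand setting was not given in the sources used here. Columns were assigned through the samples' descriptions, with N2-3 taken as Nras(G12D) library 2 and columns named BMT as leukemic libraries.

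From the deposited log2 values, limma 3.58.1 in R 4.3.3 fitted a mean per group over all 15 libraries with a trend in the spread (10 residual degrees of freedom), and p-values were adjusted over the 13171 members. Fold changes are on this log2 scale, which understates the changes of low genes. CPM were computed from the recovered counts and the authors' effective library sizes. The fit was tested on simulated data. Named genes were up to 15 rises and 15 falls among called genes at or above the median level (log2 4.93) whose groups did not overlap, leaving out pseudogenes and unnamed models. As fewer than 10 met this (Egr1, Jun, Dusp1 and Rpl34), 10 rises and 10 falls at an unadjusted p below 0.01 were named too. Tet2, Nras, Thbs1, Gbp2b, Spry2 and Dusp6 were always named, with up to 4 genes per list by p. The other called genes, Csrnp1, Myc and Fosl2, the pseudogenes' parents, Klf1, Ifi44l and the genes given to check the sort or the library sex were outside this rule and chosen after their values were seen. Members and gene lists were chosen with earlier results of these data known. Replicate numbers were not used to pair the libraries in the main fit. Same-numbered libraries of both groups deviated with correlations of -0.391, 0.254 and -0.192. With 3 libraries per group these values cannot decide whether the numbers pair the libraries. Positions and coding sequences are from GENCODE M21 (GRCm38), and promoters from RefSeq (GRCm38.p6), where 21 of the 26 immediate early genes matched. Alternatives were the added count, the filter, the libraries in the fit, scaling, library weights, a Y-linked covariate, the replicate block, leaving out each library and, chosen after seeing the data, a correction for GC content and length.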

Additional observations from a re-analysis of the deposited data

How the results depend on the processing

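The count of 15 called genes was 8 with a filter at a log2 of 2, 5 in a fit of only the 6 libraries compared, 36 after quantile normalization and 279 with library quality weights, whose estimation did not converge (221 higher and 58 lower). Leaving out 1 library at a time gave 9 to 134. It stayed within 1.5 times with 0.1 counts added (12), 2 counts added (15), the filter over all 15 libraries (11), no filter (14), no leukemic group (20), median centring (19), the Y-linked covariate (14) and the GC and length correction (16). With the replicate block 16 genes were called, among them 14 of the 15. Gm7335 lost its call there (limma, adjusted p = 0.0606), and Alpk1 and Gstcd gained one. Whether the numbers pair the libraries was not established. Gbp2b, Gm5900 and Egr1 kept their calls under all 19 alternatives run. Rpl34, Rpl34-ps1, Gm19708, Tdpx-ps1 and Tmem246 lost theirs only in the fit of 6 libraries, where fewer residual degrees of freedom were available. Median centring moved the median of all members from 0.09 to -0.11 and quantile normalization to -0.05. Changes of the double mutant against Nras(G12D) followed GC content weakly over genes (Spearman 0.0699). Those of Tet2-/- against WT followed it more (Spearman -0.325). GC and length were known for 97.6% of members. Tet2, which was not called, took log2 changes from -0.24 to 0.13 and Mmp9 from -2.12 to 0.90 when 1 library was left out, and Tpm4 was at -0.048 with median centring. For genes of few counts, such as Gm7335 at no more than 0.185 CPM in Nras(G12D), depth limits the precision.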
